A study of Homo sapiens with 7 samples.

Results

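Cells carrying the p53 variant M133T were compared with vector cells, both without drug, in 1 RNA-seq library each. The rule took the 2 deposited count columns of these groups, of 7 libraries in the series, and every gene in them. Of 19699 protein-coding genes in the table, 12661 reached 1 CPM (1 count in 1000000 counts of a library, after scaling) in at least 1 of the 7 libraries and are called measured here. All libraries came from HCT116 p53-/- cells, an established human colon carcinoma line whose own p53 function has been removed, so the deletion is shared by every group. The vector control carried no introduced p53. The p53-M133T cells had been infected to carry that variant, and other cells carried p53-R273H or wild-type p53. These variant lines and the vector line were also sequenced after 24 h with arsenic trioxide (ATO) at 1 µg/ml. The promoter behind the introduced p53 and whether a line was a clone or a pool are not stated in the labels.

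p53 is a transcription factor that binds DNA as a tetramer and, when active, raises genes that halt the cell cycle, trigger apoptosis, aid DNA repair and limit p53 itself. Cancer variants of its DNA-binding domain are commonly divided into contact variants, such as R273H, which alter a residue that touches DNA, and structural variants, which loosen the fold of the domain. Variants can lose the ability to raise p53 targets, and some have been reported to acquire other activities, called gain of function. The question posed here was how much of either was visible for M133T in cells that had not received ATO.

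Below, levels are CPM after scaling by the trimmed mean of M-values (TMM), and 7 values in a row stand for vector, p53-M133T, vector with ATO, p53-M133T with ATO, p53-R273H, p53-R273H with ATO and wild-type p53, in this order. A ratio is the p53-M133T level over the vector level, both without ATO, unless stated otherwise, with its 95% counting interval in parentheses. Intervals are Clopper-Pearson intervals, computed from how the counts of a gene divided between 2 libraries. They cover counting error alone, since there was 1 library per group and reads were not counted as molecules.

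**Figure D1:**
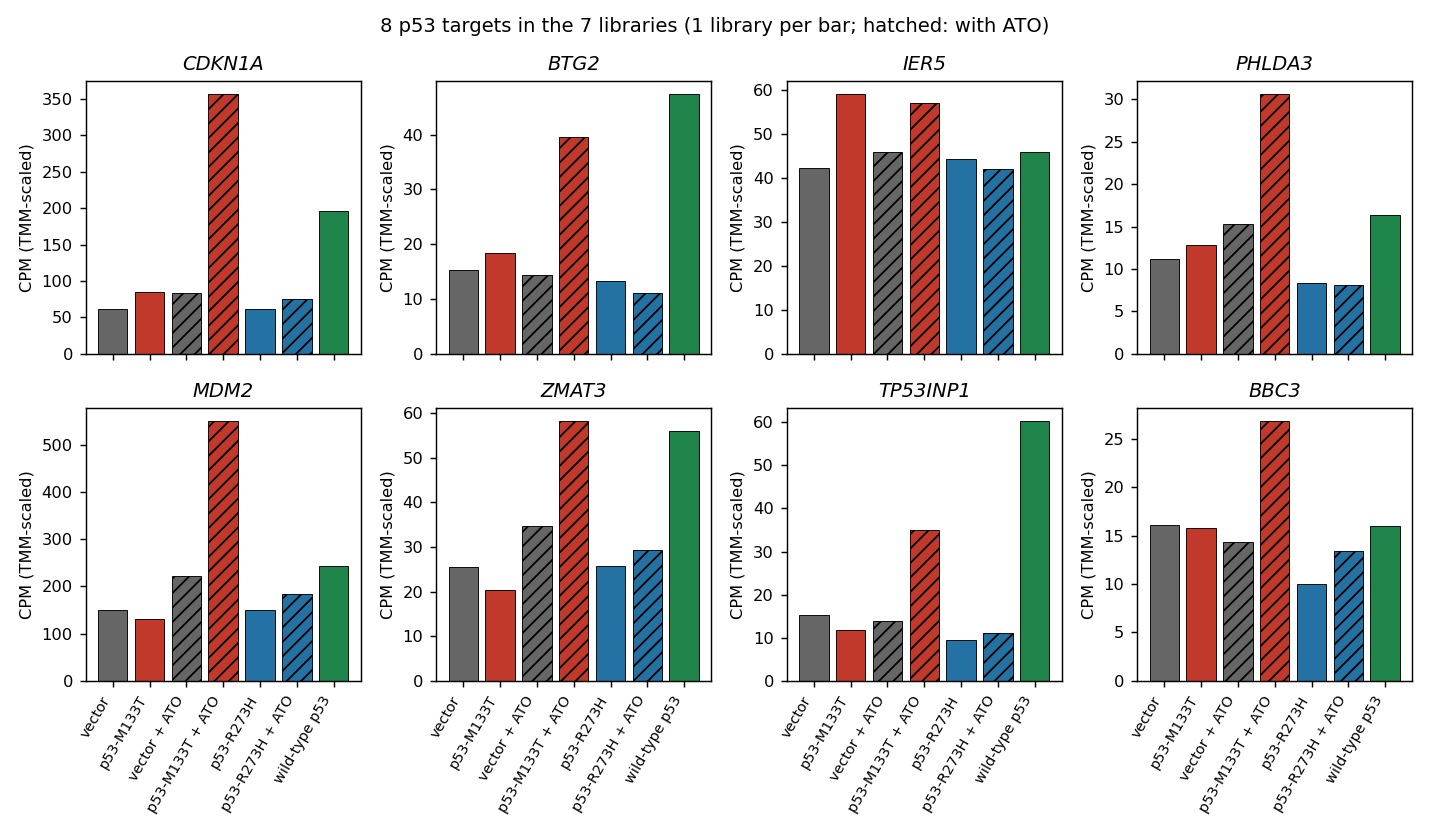
Bars give TMM-scaled CPM (linear axis from 0) of 8 p53 targets, 1 library per bar, with hatching for ATO. Without ATO, CDKN1A, BTG2, IER5 and PHLDA3 were above vector in p53-M133T cells, CDKN1A at 85.0 against 60.9 CPM. MDM2, ZMAT3, TP53INP1 and BBC3 were below it. The difference of PHLDA3 was at the edge of counting error, and that of BBC3 lay within it.

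The p53-M133T library held 39297534 counts and the vector library 34474017, within a range over all libraries from 25062996 upward. A floor of 3 counts, which is what a count of 0 leaves possible, equalled 0.0761 CPM in p53-M133T and 0.0849 CPM in vector. The epithelial markers KRT8, KRT18, KRT19, EPCAM, CDH1 and CDX2 were present in all 7 libraries, with EPCAM between 240.1 and 261 CPM, while CDX1, VIL1, CDH17 and KRT20 were under 1 CPM in both libraries compared. The wild-type library has a name prefix of its own in the labels, so its genotype and a possible batch cannot be told apart. The vector and wild-type libraries held more of 3 erythroid transcripts than the rest. HBB had 156, 0, 5, 0, 2, 0 and 217 counts in the 7 libraries, and the 11 erythroid markers together had 16.8 CPM in vector, 4.18 in p53-M133T and 24.9 in wild-type p53. In such bulk samples fewer cells of a type and less RNA per cell cannot be told apart, and the source of these transcripts was not tested. The 12 leukocyte markers summed to 6.25 CPM in vector and 5.05 in p53-M133T, with PTPRC at 1 and 0 counts, and the 8 endothelial markers to 40.0 and 44.5 CPM, most of it from EGFL7.

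Across genes the p53-M133T and vector libraries were close to each other. The median log2 ratio of the measured genes, with a pseudocount of 1 CPM, was 0.014, and from the 5th to the 95th percentile it ran from -0.36 to 0.25. At least 2-fold higher in p53-M133T were 12 genes (0.0948% of those measured), and at least 2-fold lower were 14 (0.111%). Deep counting made smaller differences visible, with the counting interval above 1 for 3275 genes (25.9%) and below 1 for 2883 (22.8%). A smaller size rule, chosen after the values were seen, asked for a ratio at least 25% above or 20% below 1 with an interval that left out 1, and was met by 306 higher genes (2.42%) and 897 lower genes (7.08%). No replicate spread exists against which to set any of these differences.

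**Figure D2:**
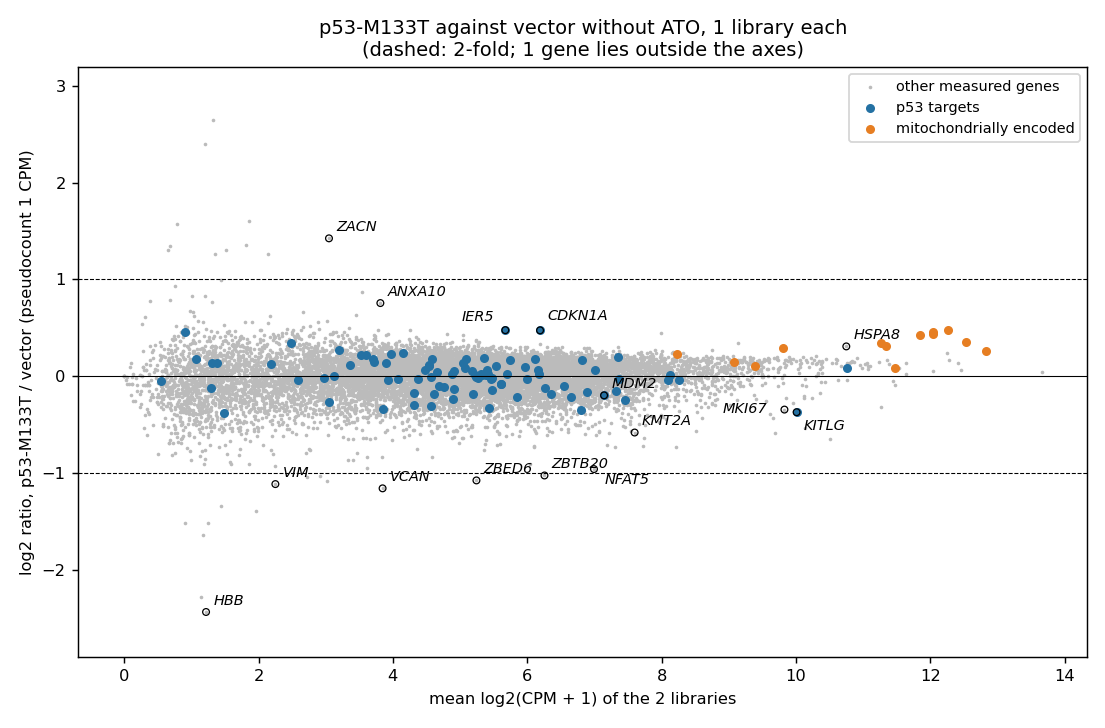
Each point is 1 measured gene, with the mean log2(CPM + 1) of the vector and p53-M133T libraries on the x axis and their log2 ratio on the y axis. The p53 targets (blue) scatter around 0 inside the dashed 2-fold lines, and the mitochondrially encoded transcripts (orange) lie above 0, while 1 gene is outside the axes.

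The p53 targets as a whole were centred where all genes were. Of 98 targets listed, 91 were measured, and 48 of them had a log2 ratio above 0 and 43 below it. Their median log2 ratio was 0.01, against 0.01 for all measured genes, and none reached 2-fold. The interval lay above 1 for 22 targets (24.2%) and below 1 for 25 (27.5%), shares that stand beside 25.9% and 22.8% of all genes. By the smaller size rule 4 targets were higher (4.4%, against 2.42% of all genes), among them CDKN1A, IER5 and PGF. Lower by that rule were 6 (6.59%, near the 7.08% of all genes), namely ZMAT3, TP53INP1, ASCC3, ACER2, KITLG and LIF.

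Among the cell cycle arrest targets, 7 of 10 measured were above 0 and the median log2 ratio was 0.16. It was 0.07 with the trend over exon length and GC content, given further down, taken out. CDKN1A (ENSG00000124762, chromosome 6, 36676460 to 36687339), which encodes the cyclin-dependent kinase inhibitor p21, stood at 60.9, 85.0, 83.9, 357, 61.5, 74.6 and 196 CPM. Without ATO it was highest in wild-type p53, and the p53-M133T level lay above those of vector and p53-R273H and next to that of vector with ATO. Its ratio to vector was 1.40 (1.32 to 1.47). BTG2 (chromosome 1, 203305491 to 203309602), an antiproliferative gene, stood at 15.4, 18.4, 14.5, 39.6, 13.2, 11.035 and 47.4 CPM, a ratio of 1.20 (1.07 to 1.34). SFN, which encodes the cell cycle regulator 14-3-3 sigma, had a ratio of 1.15 (1.11 to 1.19). The member with the lowest ratio was ZMAT3, an RNA-binding protein gene (chromosome 3, 179017223 to 179072279), at 25.4, 20.3, 34.7, 58.2, 25.7, 29.3 and 56.0 CPM. Its ratio was 0.799 (0.726 to 0.88), the lowest of its 7 levels being that in p53-M133T cells.

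The genes through which p53 limits itself pointed the other way. Of 8 measured feedback regulators 6 were below 0, with a median log2 ratio of -0.16. MDM2 (ENSG00000135679, chromosome 12, 68808176 to 68850686), whose product marks p53 for degradation, stood at 150.4, 131, 222, 550.2, 150.3, 184 and 243 CPM. The p53-M133T library held the lowest of these levels, at a ratio of 0.871 (0.838 to 0.905). MDM4, a relative of MDM2 that restrains p53, had a ratio of 0.857 (0.819 to 0.897), while PPM1D, which encodes a phosphatase that dampens the damage response, had one of 1.15 (1.07 to 1.23). Both lower genes have long exon sequences, 13284 bp for MDM2 and 11008 bp for MDM4, and ratios in this comparison followed length, as described below. With length and GC content taken out, the log2 ratio of MDM2 was 0.00 in place of -0.20, and the median of the list -0.03.

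Of 17 apoptosis targets 10 were above 0, at a median log2 ratio of 0.01. BBC3, which encodes the BH3-only protein PUMA, stood at 16.1, 15.7, 14.3, 26.8, 10.012, 13.4 and 16.025 CPM, a ratio of 0.98 (0.873 to 1.10). The apoptosis effector BAX had a ratio of 1.04 (0.965 to 1.13) and the death receptor gene FAS one of 0.985 (0.824 to 1.18), so neither difference exceeded counting error. TP53INP1, a regulator of stress-induced death and autophagy, stood at 15.2, 11.9, 13.8, 35.0, 9.47, 11.1 and 60.3 CPM. It was below vector in both p53-variant lines without ATO and far above it in wild-type p53 cells, with a p53-M133T ratio of 0.779 (0.687 to 0.884). The death receptor gene TNFRSF10B had a ratio of 0.843 (0.815 to 0.873), and TP53I3, which encodes a quinone oxidoreductase, one of 1.23 (1.05 to 1.45).

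Of 10 DNA repair and nucleotide targets 4 were above 0, at a median log2 ratio of -0.09. The ribonucleotide reductase subunit gene RRM2B had a ratio of 0.861 (0.81 to 0.915) and the helicase gene ASCC3 one of 0.782 (0.749 to 0.817). DDB2 and XPC, damage sensors of nucleotide excision repair, had ratios of 1.04 (0.957 to 1.13) and 1.01 (0.951 to 1.08), which did not differ beyond counting error.

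The remaining targets, 46 of metabolism, autophagy and other functions, had a median log2 ratio of 0.02, and 25 of them were above 0. IER5 (ENSG00000162783, chromosome 1, 181088712 to 181092899), an immediate early gene linked to the heat shock factor HSF1, stood at 42.2, 59.2, 46.1, 57.1, 44.4, 42.0 and 46.0 CPM. Both p53-M133T libraries lay above the other 5, and the ratio to vector without ATO was 1.40 (1.31 to 1.495). PGF, which encodes a growth factor of the VEGF family, stood at 3.96, 5.27, 5.56, 7.16, 4.81, 6.21 and 5.84 CPM, lowest in vector, with a ratio of 1.33 (1.07 to 1.66). The ligand gene KITLG stood at 1172, 905, 812, 784, 1221, 880.1 and 1840 CPM, a ratio of 0.773 (0.762 to 0.784). The metabolic regulators SESN1 and TIGAR had ratios of 0.811 (0.682 to 0.963) and 0.879 (0.791 to 0.976). GDF15, a secreted stress factor, had one of 1.04 (1.00 to 1.09).

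Across the 7 libraries, 8 of the 91 targets were highest in p53-M133T without ATO, namely ALDH4A1, IER5, MGMT, PIDD1, RAD51C, TNFAIP8, TNFRSF10C and TP53I13. That is 8.79% of the targets, whereas 18.6% of all measured genes had their highest level in that library. The library with the most target maxima was p53-M133T with ATO, which held 47 (51.6%, against 13.7% of all genes). Wild-type p53 held 27, a share of 29.7% that was near the 29.3% of all genes. Set beside each other against the same vector library, and therefore not independent, the median log2 ratio of the targets was 0.01 for p53-M133T, -0.10 for p53-R273H and 0.22 for wild-type p53. CDKN1A had ratios of 1.40, 1.01 and 3.22 in these comparisons, IER5 of 1.40, 1.05 and 1.09, BTG2 of 1.20, 0.859 and 3.09 and MDM2 of 0.871, 1.00 and 1.62.

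The pair of libraries with ATO gave a comparison of the same lines that shares no library with the one above. There, 24 genes were at least 2-fold higher in p53-M133T than in vector (0.19%) and 5 at least 2-fold lower (0.0395%). The median log2 ratio of the p53 targets was 0.26, with 77 of 91 above 0 (84.6%) and an interval above 1 for 67 (73.6%). Of all measured genes 50.4% were above 0 in that pair and 18.4% had an interval above 1. CDKN1A had a ratio of 4.25 with ATO against 1.40 without it, BTG2 of 2.74 against 1.20, MDM2 of 2.48 against 0.871, TP53INP1 of 2.54 against 0.779 and ZMAT3 of 1.68 against 0.799. The last 3 were therefore lower than vector without ATO and higher with it. Across all measured genes the ratios without and with ATO had a Spearman correlation of 0.086, which describes 12661 genes of 4 libraries and not replicates. With length and GC content taken out the correlation was -0.006. The difference between both states was not tested here.

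**Figure D3:**
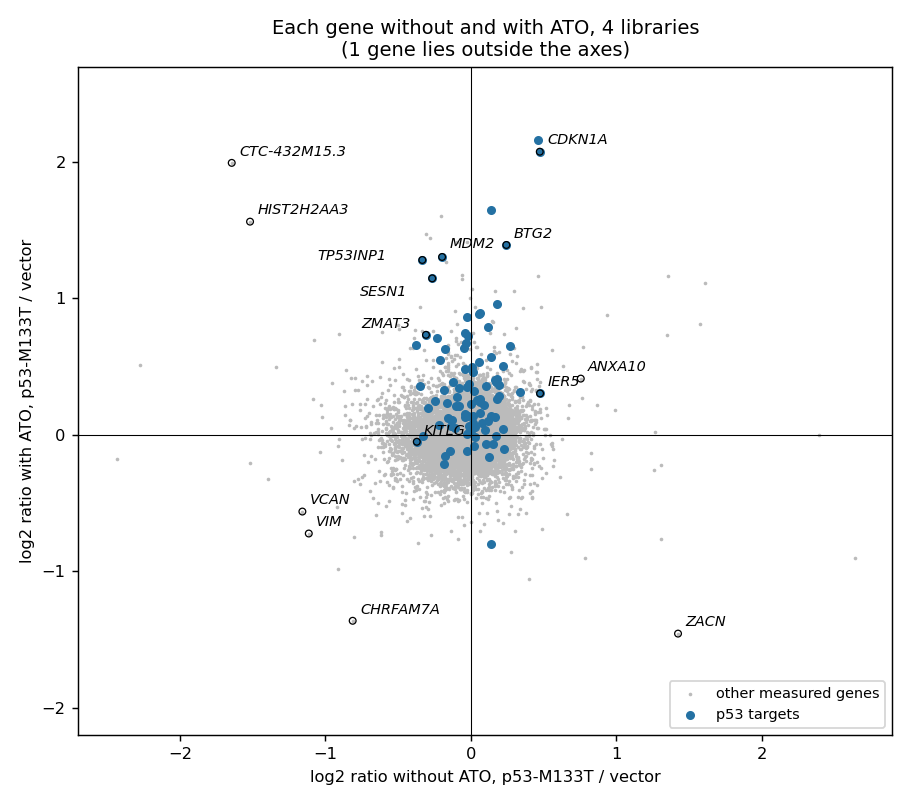
Each point is 1 measured gene, with the log2 ratio of p53-M133T to vector without ATO on the x axis and with ATO on the y axis, both with a pseudocount of 1 CPM. The p53 targets (blue) spread upward, with a median of 0.26 on the y axis and 0.01 on the x axis, and 1 gene is outside the axes.

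One test was possible, which took both ATO states as stand-ins for replicates of the lines. It asked which genes differed between p53-M133T and vector over both states, with ATO as a term, by the quasi-likelihood test of edgeR, with p adjusted after Benjamini and Hochberg and a threshold of 0.05. Of 13408 genes tested, 19 rose in p53-M133T (0.142%) and 18 fell (0.134%), and 278 and 733 had an unadjusted p under 0.05. Its 1 residual degree of freedom comes from the difference between both states, and 32.7 prior degrees of freedom were added from all genes. The p-values therefore rest mostly on the spread between states pooled over genes, and not on the spread between cultures. DESeq2 on the same libraries called 1 gene higher and 0 lower, as did edgeR with the p53-R273H libraries added to estimate the spread, and neither called any gene named below.

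Of the 91 p53 targets 6 rose and none fell, among them CDKN1A, BTG2, PHLDA3, ABCA12 and IER5. Of all 13408 genes tested 19 rose (0.142%) and 18 fell (0.134%). DESeq2 called none of the 91. At an unadjusted p under 0.05 edgeR had 29 targets higher and 2 lower, against 278 and 733 of all genes tested. The test joins both states, and the median log2 ratio of the targets was 0.01 without ATO and 0.26 with it. CDKN1A rose by a log2 of 1.30 (SE 0.17; edgeR adjusted p = 5.94e-05) and BTG2 by 0.87 (SE 0.15; adjusted p = 0.00167), the ratios with ATO being the larger ones in both. PHLDA3, which encodes an inhibitor of AKT signalling, had a ratio of 1.15 (1.00 to 1.31) without ATO and 2.001 with it. IER5 rose by 0.40 (SE 0.09; edgeR adjusted p = 0.0456), and among the 6 it alone had a ratio with ATO, 1.24, below that without. The IER5 call was lost when edgeR used DESeq2 size factors, with which 16 genes rose and 13 fell. The epithelial serpin gene SERPINB5, itself reported as a p53 target but in none of the lists, rose too, with ratios of 1.13 (1.04 to 1.22) without ATO and 1.95 with it. With length and GC content taken out, 4 genes rose and 2 fell, and VCAN, but none of the p53 targets, was among them. That fit had 15.37 prior degrees of freedom in place of 32.7. Whether calls were lost through changed ratios or through the changed estimate of spread was not tested.

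Genes reported as raised by gain-of-function p53 variants in other cell systems were examined as a list. Of 42 listed, 37 were measured, and 16 of these were above 0 and 21 below, with a median log2 ratio of -0.04. The interval lay above 1 for 7 (18.9%) and below 1 for 12 (32.4%), against 25.9% and 22.8% of all genes. By the smaller size rule 1 member was higher (2.7%, near the 2.42% of all genes) and 4 were lower (10.8%, against 7.08% of all genes). The higher one was E2F5, a transcription factor of the cell cycle, at 1.37 (1.18 to 1.59), its exons overlapping those of C8orf59 on the other strand. No member was called in the test over both ATO states, which called 0.142% of all genes tested higher and 0.134% lower. With shares that small, the absence of a call among 37 genes says little about the list.

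The chromatin regulators of that list were among the lower members. KMT2A, a histone H3 lysine methyltransferase, stood at 236, 157, 269, 272.5, 262, 259 and 235 CPM. KMT2D, another such enzyme, stood at 239, 169, 282, 309, 285, 269.9 and 259 CPM. For both the p53-M133T library was the lowest of the 7, with ratios of 0.666 (0.645 to 0.689) and 0.708 (0.686 to 0.731). The acetyltransferase gene KAT6A had a ratio of 0.796 (0.764 to 0.83), the receptor tyrosine kinase gene EGFR one of 0.719 (0.689 to 0.751) and MET, another receptor kinase gene, one of 0.814 (0.791 to 0.837). With ATO the ratio was 1.01 for KMT2A, 1.10 for KMT2D and 0.935 for EGFR. KMT2A has 31305 bp of exon sequence and KMT2D 20485 bp, and their log2 ratios were -0.26 and -0.32 once length and GC content were taken out, against -0.58 and -0.49.

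The mevalonate pathway makes cholesterol and isoprenoids and has been linked to mutant p53 in breast cells. Its median log2 ratio was 0.05, and 18 of 26 members were above 0. The interval lay above 1 for 12 (46.2%) and below 1 for 5 (19.2%), against the same 25.9% and 22.8%. SQLE, an enzyme of the sterol branch, had a ratio of 1.18 (1.11 to 1.26), and the sterol carrier gene STARD4 one of 0.798 (0.756 to 0.843). Genes of G1/S and DNA replication had a median of 0.07, with 30 of 36 above 0 and the interval above 1 for 21 (58.3%, against 25.9% of all genes). GINS2, a subunit of the replicative helicase, had a ratio of 1.18 (1.12 to 1.24). With ATO the same list had a median of -0.20 and 0 of 36 above 0. G2/M genes had a median of 0.04 without ATO, where the proliferation marker gene MKI67 had a ratio of 0.787 (0.775 to 0.799) and the mitotic kinase gene AURKB one of 1.18 (1.12 to 1.24), and of -0.13 with it.

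**Figure D4:**
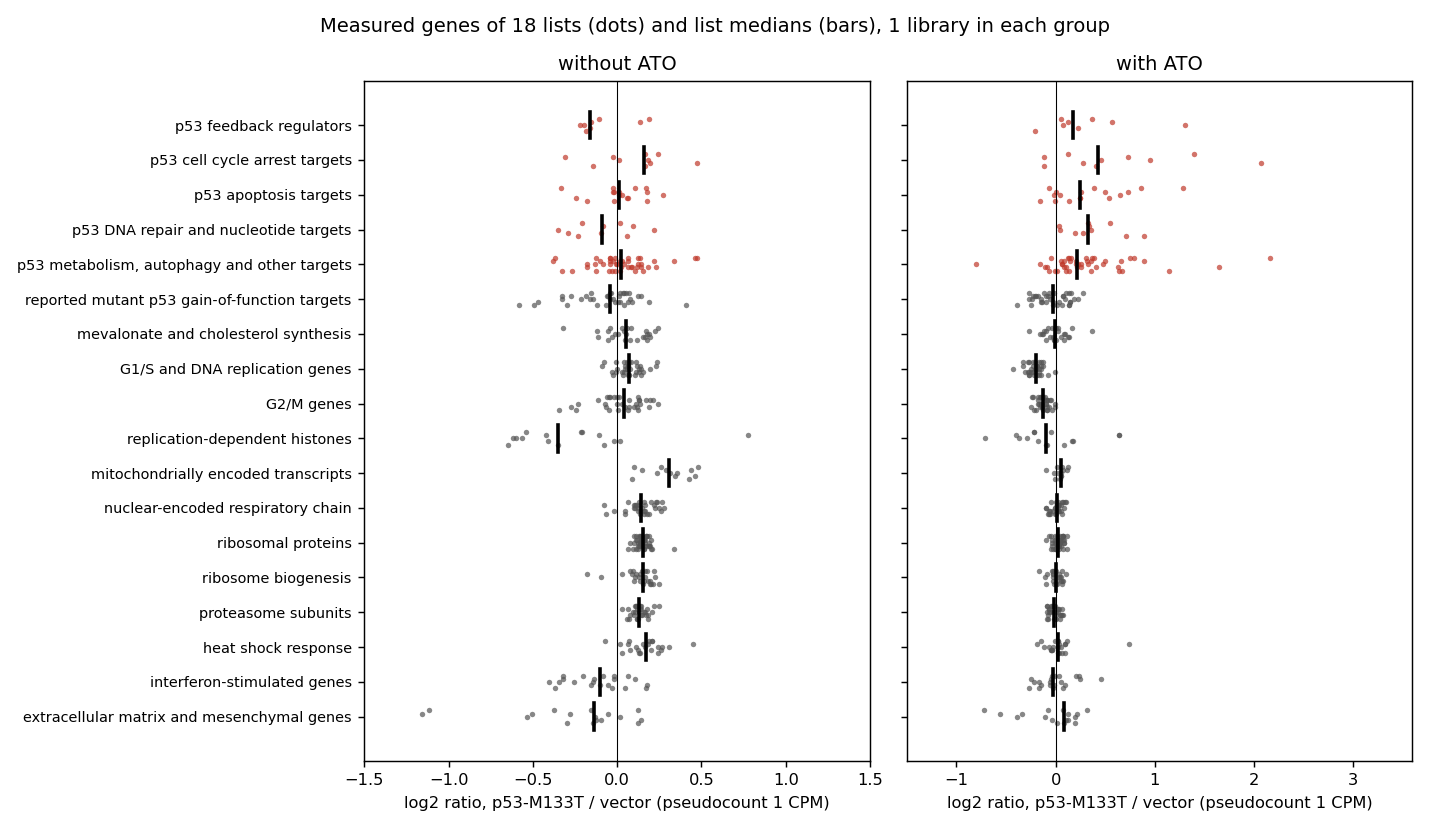
Dots give the log2 ratio of p53-M133T to vector (pseudocount 1 CPM) for the measured genes of 18 lists, without ATO (left) and with ATO (right, on a wider axis), and bars give list medians. Without ATO the p53 lists straddle 0 with medians from -0.16 to 0.16, and with ATO their medians run from 0.18 to 0.43.

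Lists of highly expressed housekeeping genes had medians above 0. All 13 mitochondrially encoded transcripts were above 0 with an interval above 1, at a median log2 ratio of 0.31 and a range from 0.09 to 0.48. Together they took 3.69% of the counts in vector and 4.59% in p53-M133T, the highest share of the 7 libraries. MT-CO3, a cytochrome c oxidase subunit gene, stood at 4162, 5802, 2832, 3084, 4574, 4574 and 1640 CPM, a ratio of 1.39 (1.38 to 1.40). The nuclear-encoded respiratory chain genes had a median of 0.14, with 31 of 34 above 0. With ATO the medians of these lists were 0.05 and 0.01. Taking out length and GC content left the mitochondrial median at 0.31.

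All 47 ribosomal protein genes and all 31 proteasome subunit genes were above 0 as well, with medians of 0.15 and 0.13, against 53.1% of all measured genes above 0. RPS14, of the small ribosomal subunit, had the highest ratio of the former at 1.27 (1.24 to 1.29). Ribosome biogenesis genes had a median of 0.15, with 24 of 26 above 0, and heat shock response genes one of 0.17, with 22 of 23 above 0. The chaperone gene HSPA1B stood at 216, 296, 417, 446, 328, 485 and 281 CPM, with vector lowest, and its ratio was 1.37 (1.33 to 1.41). HSPA8, the constitutive member of that family, had a ratio of 1.24 (1.225 to 1.252). With ATO the medians of these 4 lists lay between -0.02 and 0.02. No member of them was called in the test over both ATO states, which called 0.142% of all genes tested higher and 0.134% lower. With shares that small, the absence of a call says little about these lists. Against the same vector library, p53-R273H had medians of -0.14 for ribosomal proteins, -0.03 for the proteasome and 0.12 for the heat shock response. HSPA1B shares near-identical sequence with HSPA1A, so reads could have been split between them.

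Ratios of this comparison followed exon length across the measured genes. Exon length here joins all annotated exons of a gene, so it can exceed the length of any 1 transcript. GC content is that of the longest annotated transcript. In the 10% of measured genes with the shortest exon sequence (207 to 2185 bp) the median log2 ratio was 0.118, and in the 10% with the longest (10682 to 118976 bp) it was -0.175. The Spearman correlation across genes was -0.431 with exon length and 0.391 with GC content. For p53-R273H against the same vector library these were 0.299 and -0.183, and for the pair with ATO 0.028 and 0.321. The part of this trend in the results for single genes was not tested beyond the values given with length and GC content taken out. That step moved the median of the ribosomal proteins to 0.09, of the proteasome to 0.12 and of the heat shock list to 0.14. Among named genes whose log2 ratio was recomputed in this way, 51 were classed as moved, 1 (MDM2) as reversed and 96 as the same. The last class held some changes of sign near 0, such as NFKBIA from 0.066 to -0.027 and MT1X from 0.014 to -0.092. It also held ratios that shrank, such as ADM from 0.220 to 0.107. ZMAT3 went from -0.309 to -0.147, ASCC3 from -0.351 to -0.157 and SFN from 0.196 to 0.060. MKI67 went from -0.345 to -0.201, AURKB from 0.239 to 0.129 and STARD4 from -0.321 to -0.191.

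**Figure D5:**
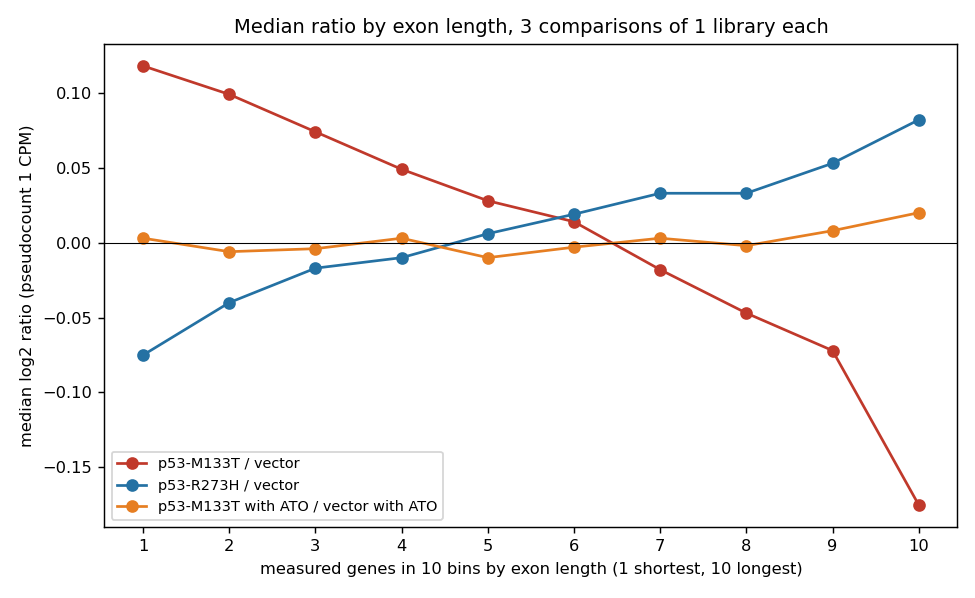
Points give the median log2 ratio (pseudocount 1 CPM) of the measured genes in 10 bins of equal size by exon length, shortest at 1 and longest at 10, for 3 comparisons. The p53-M133T comparison without ATO falls from 0.118 to -0.175, that of p53-R273H, which shares the vector library, runs from -0.075 to 0.082, and that with ATO stays between -0.01 and 0.02.

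The genes at least 2-fold higher were mostly weakly expressed or hard to count. Of the 12, 10 were under 10 CPM in both libraries, 11 share exon sequence with another gene of the table and 8 carry clone-based names. ZACN, which encodes a zinc-activated ion channel and overlaps EXOC7 on the other strand, had 143, 495, 79, 5, 439, 350 and 419 counts. Its ratio was 3.10 (2.57 to 3.76) without ATO and 0.0626 with it. GALNT4, an enzyme gene of O-glycosylation that shares exons with a read-through gene, had 29 counts in vector and 138 in p53-M133T. SMIM11A alone had no overlap, with 65 and 229 counts and a ratio with ATO of 0.782. RP11-603J24.9, which overlaps ERBB3 and PA2G4, had 0 and 168 counts and was at least 50.2-fold higher, on a floor of 3 counts in the vector library. None of the 12 was in any of the gene lists.

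Above 10 CPM and short of 2-fold, ANXA10 (chromosome 4, 168092515 to 168187690), an annexin gene of gastric and intestinal epithelium, had the clearest higher ratio among genes without exon overlap. It stood at 9.82, 17.3, 8.07, 11.1, 13.8, 9.30 and 14.7 CPM, highest in p53-M133T, with a ratio of 1.76 (1.54 to 2.01). The ratio with ATO was 1.37, and the gene rose in the test over both states by a log2 of 0.64 (SE 0.13; edgeR adjusted p = 0.0214). That call was lost with length and GC content taken out (edgeR adjusted p = 0.0692). The log2 ratio of ANXA10 without ATO went only from 0.756 to 0.741 in that step. For p53-R273H and wild-type p53, against the same vector library, the ratios were 1.41 and 1.49. ANXA10 belongs to the intestinal epithelial list, of whose 9 measured genes 8 were above 0 (88.9%, against 53.1% of all measured genes). The median log2 ratio of that list was 0.14. It was 0.063 with length and GC content taken out and 0.08 among members of at least 10 CPM. The intestinal transcription factor gene CDX2 had a ratio of 1.20 (1.06 to 1.35).

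Lower genes included members of the extracellular matrix and mesenchymal list, 13 of 17 of which were below 0, at a median log2 ratio of -0.14. The list has a median exon length of 8140 bp, and its median was -0.07 with length and GC content taken out. With ATO it was 0.08, with 10 of 17 above 0, and for p53-R273H against the same vector library 0.04. VCAN (ENSG00000038427, chromosome 5, 83471465 to 83582303), which encodes the matrix proteoglycan versican, stood at 20.5, 8.62, 13.3, 8.66, 14.8, 9.24 and 22.4 CPM. The vector level was above the p53-M133T level in both ATO states, with ratios of 0.421 (0.369 to 0.479) without and 0.652 (0.566 to 0.752) with ATO. VCAN fell in the test by a log2 of 0.94 (SE 0.14; edgeR adjusted p = 1.42e-04), but its DESeq2 adjusted p was 0.256. It is 14831 bp long in exons and was still called lower with length and GC content taken out (edgeR adjusted p = 0.0129).

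VIM, the intermediate filament gene of mesenchymal cells, stood at 5.999, 2.23, 2.48, 1.11, 1.79, 0.751 and 5.84 CPM. It was high in the vector and wild-type libraries, the same that held HBB, and its ratio was 0.372 (0.287 to 0.479) for p53-M133T and 0.299 for p53-R273H. It fell in the test by a log2 of 1.31 (SE 0.25; edgeR adjusted p = 0.00813), with a DESeq2 adjusted p of 1.00. The call was lost with length and GC content taken out (edgeR adjusted p = 0.0547). The log2 ratio of VIM without ATO hardly changed in that step, from -1.115 to -1.112. SPARC, another matrix gene, had 71 counts in vector and 44 in p53-M133T, and ZEB1, a transcription factor of mesenchymal cells, 134 and 91. Fibroblast markers were low, with DCN at 0 in both libraries, LUM at 1 count in each, and a sum of 25.2 CPM in vector and 26.7 in p53-M133T for the 9 markers, most of it from COL1A1. The part of other cells or of the vector library in the VIM difference was not tested.

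Of the 14 genes at least 2-fold lower, 3 were the globin genes HBB, HBA1 and HBA2. HBA1 had 136 counts in vector and 0 in p53-M133T, at least 50.6-fold lower, and HBA2 had 187 and 55. For 7 of the 14 the vector library alone lay outside the range of the other 5 libraries of its name prefix, and for 6 the p53-M133T library alone. The latter kind was seen for the transcription factor gene ZBTB20, at 108, 52.6, 132, 145, 135, 118 and 145 CPM, with a ratio of 0.486 (0.461 to 0.513). NFAT5, a transcription factor of the osmotic stress response just short of 2-fold, stood at 177, 90.4, 205, 213, 205, 219.5 and 221 CPM, a ratio of 0.511 (0.491 to 0.533). Their ratios with ATO were 1.10 and 1.04, and their exon lengths 31872 and 16401 bp. With length and GC content taken out their log2 ratios were -0.63 and -0.71 in place of -1.03 and -0.96, so that ZBTB20 was no longer 2-fold lower. ZBED6, a gene nested in ZC3H11A, had ratios of 0.464 without ATO and 1.64 with it.

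Outside these groups, SLC7A11, the cystine transporter gene and a target reported to be lowered by p53, stood at 185, 113, 677, 589, 174, 671.5 and 49.7 CPM. Its ratio was 0.61 (0.587 to 0.634) without ATO, 0.87 with it and 0.268 for wild-type p53. It fell in the test by a log2 of 0.45 (SE 0.10; edgeR adjusted p = 0.0261), a call that was lost with length and GC content taken out (adjusted p = 0.849). BRCA2, a gene of homologous recombination, stood at 51.7, 32.4, 57.8, 45.0, 55.7, 57.4 and 24.8 CPM and fell by 0.52 (SE 0.10; edgeR adjusted p = 0.00562). That call was lost in the same way (adjusted p = 0.322), its exons measuring 12273 bp. NEBL, which encodes the actin-binding protein nebulette, had ratios of 0.661 without ATO and 0.815 with it, the transcription factor gene GLIS3 of 0.617 and 0.687, and ALG10, a glucosyltransferase gene of N-glycan assembly, of 0.605 and 0.64, and all of them fell in the test (edgeR adjusted p from 0.0146 to 0.023). These 3 calls were lost with length and GC content taken out as well (edgeR adjusted p from 0.116 to 0.567). CHRFAM7A, a hybrid gene that shares sequence with CHRNA7, had 118, 58, 181 and 48 counts in the vector and p53-M133T libraries without and then with ATO. It fell too (edgeR adjusted p = 0.00167) and remained called with length and GC content taken out, but its reads can belong to its parent gene. Replication-dependent histone genes, whose transcripts lack poly(A) tails, were below 0 in 13 of 15 cases, at a median log2 ratio of -0.35. Above 0 were 13.3% of them, against 53.1% of all measured genes. These genes were weakly counted, and their median was -0.124 with a pseudocount of 5 CPM. The summed level of all 22 listed histone genes was 49.0 CPM in vector and 37.2 CPM in p53-M133T, and the p53-R273H median against the same vector was -0.52.

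Among the other stress and signalling lists, the median log2 ratio was 0.03 for the ER unfolded protein response, 0.03 for the NRF2 antioxidant response, 0.03 for hypoxia and glycolysis, 0.05 for immediate early genes and 0.06 for NF-kB and inflammatory genes. It was 0.00 for WNT targets, 0.00 for the ATF4 integrated stress response, -0.01 for metallothioneins and zinc export and -0.10 for interferon-stimulated genes. Of the 21 measured genes of the last list 16 were below 0. By the smaller size rule 5 were lower (23.8%, against 7.08% of all genes), among them ISG20 at 0.717 (0.551 to 0.93). The median of that list was -0.045 with a pseudocount of 5 CPM and -0.017 among members of at least 10 CPM. Its summed level was 478.7 CPM in vector and 474.6 CPM in p53-M133T. HMOX1, the heme oxygenase gene that responds to ATO, stood at 25.045 CPM in vector and 30.6 CPM in p53-M133T without it.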

How the data were processed

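RNA libraries of a TruSeq kit were sequenced as 150 bp read pairs, per the labels' protocols. FastQC, cutadapt, STAR and hg38 were used, per the submitters' processing notes, while neither labels nor headers name the counter, its annotation or the handling of strand. The authors deposited whole-number counts per gene, not normalized. All 19699 identifiers were found in GENCODE 29. Of these, 2050 overlap exons of another gene on their own strand and 3508 on the opposite one, and values of such genes are uncertain.

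From these counts, CPM were scaled with TMM factors of all 7 libraries, between 0.967 and 1.031 (edgeR 4.0.16, R 4.3.3). Log2 ratios carry a pseudocount of 1 CPM, and printed ratios do not. Each group held 1 library, so comparisons of 2 libraries carry a 95% Clopper-Pearson counting interval (scipy 1.17.1) and no p. The test over both ATO states used edgeR's quasi-likelihood test on 4 libraries after its filter on low counts, with prior degrees of freedom of 32.7. DESeq2 1.42.0 was an alternative. Length and GC content were taken out with splines of 5 degrees of freedom across genes. The calculations were tested on simulated data. Medians of lists cover measured members only.

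Genes were named by rule: CDKN1A and MDM2, genes past 2-fold (up to 15 a direction), the 10 of at least 10 CPM whose interval lay farthest from 1 in each direction, up to 4 members of each of 31 lists with at least 50 counts, and the 10 called genes of smallest p in each direction. Others, such as BAX, FAS, SESN1, TIGAR, GDF15, DDB2, XPC and the markers, were named after their values were seen. Some genes the rule selects are not reported here. The comparison and the lists were chosen with earlier results of these data known.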

Additional observations from a re-analysis of the deposited data

Results flagged for a closer look

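Genes with at least 2-fold differences in opposite directions without and with ATO were singled out, with 1 library behind each value and no test of the difference between both states. ZACN had a log2 ratio of p53-M133T to vector of 1.43 without ATO and -1.46 with ATO. CTC-432M15.3, which shares exons with FNIP1 and RAPGEF6, had log2 ratios of -1.64 and 1.99, with 0 counts in vector with ATO and in the p53-R273H with ATO and wild-type libraries. HIST2H2AA3, a histone H2A gene that has near-identical copies in its cluster, had log2 ratios of -1.52 and 1.56, with 0 counts in vector with ATO.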

How the results depend on the processing

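No paired analysis was possible because each group holds 1 library and the labels give no replicate numbers. The counts of genes at least 2-fold higher and lower (12 and 14) were 2 and 0 with a pseudocount of 5, 19 and 31 with one of 0.5, and 2 and 4 among genes of at least 10 CPM. By rules chosen after seeing the data they were 306 and 897 by the smaller size rule, 1 higher without overlapping exons, and 7 and 7 for p53-M133T outside the other 5 libraries. Genes with the same direction with ATO (6 and 6) were 1 and 0 with a pseudocount of 5, 15 lower with one of 0.5, and 1 and 1 at 10 CPM. Calls of the test (19 and 18) were 1 and 0 with DESeq2 (unadjusted p under 0.05: 42 and 203), 41 and 66 without a filter, 38 lower at a mean of 10 CPM, 1 and 0 with 6 libraries (unadjusted 300 and 612), 0 and 0 without a term for ATO (unadjusted 10 and 32; DESeq2 was not run so), and 4 and 2 with the length and GC correction. With DESeq2 size factors in edgeR the calls were 16 and 13. Leaving out a library was not run, since no residual degree of freedom would remain. MDM2 changed sign under the length and GC correction, to 0.001, as did some ratios near 0, such as those of NFKBIA and MT1X.

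List medians held under other size factors. Histones moved to -0.124 (pseudocount 5), -0.455 (0.5) and -0.182 (no filter), and feedback regulators to -0.03 under the correction. The other 10 medians that moved were of marker, intestinal and metallothionein lists, with no change of sign. Some medians near 0 did change sign under the length and GC correction without counting as moved. Among them, immediate early genes went from 0.048 to -0.038, NF-kB genes from 0.057 to -0.004 and all p53 targets from 0.010 to -0.011. Causes were not tested. With 1 library a group, depth limits counting error alone, and differences between cultures cannot be told apart from those between genotypes.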
